A study of Mus musculus with 8 samples.

Results

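The Yes-associated protein YAP and its paralogue TAZ were followed at the level of their messenger RNA, together with 4 genes that they are known to switch on. Yap1 encodes YAP, Wwtr1 encodes TAZ, and Amotl2, Cyr61, Ctgf and Ankrd1 are the targets. The 6 genes were chosen by symbol, and all 6 were present, each as 1 of the 31053 genes in the count tables. Single-cell RNA sequencing had been run on mouse brain cortex after enzymatic digestion and removal of myelin. Mice were 8 weeks old, and each group pooled 3 brains. The Lama4-/- mice lack laminin alpha 4, and the Tek-Cre:Lama5-/- mice lack laminin alpha 5 where Cre recombinase is made from the Tek (Tie2) promoter, which is active in endothelial cells and in part of the blood cell lineage. Each genotype had its own wild-type (WT) group, for which the labels give no further allele. Each of the 4 groups has 2 labelled samples, but both Lama4-/- tables were identical to the last count and were used as 1, which leaves 7 distinct libraries. Since the animals were pooled by group, the 2 libraries of a group may come from 1 pool of cells, and p-values then measure the spread between libraries and not between mice.

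YAP and TAZ are coactivators that do not bind DNA themselves. In the Hippo pathway, the MST kinases with Sav1 activate the LATS kinases with their MOB1 partners, and LATS phosphorylates YAP and TAZ, which keeps them out of the nucleus. Unphosphorylated YAP and TAZ enter the nucleus, bind TEAD transcription factors and switch on genes such as Ctgf, Cyr61, Ankrd1 and Amotl2. They respond to cell shape and to adhesion to the basement membrane, and in endothelium they are known for their part in vessel growth and barrier formation. Because the proteins are controlled largely by phosphorylation and location, the RNA of Yap1 and Wwtr1 does not report their activity.

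TEAD factors recognise the core GGAATG, which reads CATTCC on the other strand. The RefSeq table of promoters (build GRCm38.p6) held an entry for 5 of the 6 genes, all but Ctgf, and the 250 bases before the annotated start contained the core, on either strand, in 5 of these 5. The same 6 letters occurred in 4153 of all 32851 promoter windows of that length, or 12.6%. All 250 bases of the Ankrd1 window are annotated as exon. The matches of Ankrd1 and of Amotl2 lie inside the gene spans given below. The 5 of 5 is therefore no measure of enrichment over that share. Windows or stretches are printed for the genes whose RNA is most used below, 5′ to 3′ along the gene, with the core in capitals. For Wwtr1 (chr3:57575911-57576160, minus strand) the core lies 130 bases before the start, and for Cyr61, listed by RefSeq as Ccn1 (chr3:145649986-145650235, minus strand), it lies 97 bases before it. For Amotl2 (chr9:102717727-102717756, plus strand) 136 of the 250 bases are annotated as exon, so only 30 bases around the core are shown, 59 bases before the start. In Yap1 the core lies 135 bases before the start. These matches are a description of the letters and show no binding.

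Wwtr1: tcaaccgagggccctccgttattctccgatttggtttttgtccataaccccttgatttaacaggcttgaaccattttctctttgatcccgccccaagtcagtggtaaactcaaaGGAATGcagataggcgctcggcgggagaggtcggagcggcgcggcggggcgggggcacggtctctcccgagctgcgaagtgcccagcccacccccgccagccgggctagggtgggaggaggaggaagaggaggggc
Cyr61: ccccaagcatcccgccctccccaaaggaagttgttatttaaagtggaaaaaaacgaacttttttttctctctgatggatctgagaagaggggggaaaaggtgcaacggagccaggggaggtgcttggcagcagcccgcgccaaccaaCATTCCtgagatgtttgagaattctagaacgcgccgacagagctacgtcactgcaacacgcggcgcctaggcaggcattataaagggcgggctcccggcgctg
Amotl2: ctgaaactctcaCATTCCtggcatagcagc

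In the annotation used for coordinates (GENCODE M21, build GRCm38), all 6 are protein-coding genes. Yap1 (ENSMUSG00000053110) spans chr9:7931999-8004596 and Amotl2 (ENSMUSG00000032531) chr9:102716672-102733418. Wwtr1 (ENSMUSG00000027803) spans chr3:57455649-57575910 and Cyr61 (ENSMUSG00000028195) chr3:145646976-145649981. Ctgf (ENSMUSG00000019997) spans chr10:24595442-24598683 and Ankrd1 (ENSMUSG00000024803) chr19:36111961-36120099.

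The 7 libraries held 3.55e+07 to 4.83e+07 UMIs (unique molecular identifiers, each counting 1 captured RNA) in 6295 to 9556 barcodes. Of 56961 barcodes, 47239 were kept as cells and fell into 56 clusters, which were named "-like" from marker genes. Libraries shared at most 21 barcodes in any pair. The endothelial-like class held 2216 to 5057 cells per library. Endothelial, pericyte, smooth muscle, astrocyte, microglia and perivascular macrophage classes each had at least 50 cells in every library. Levels are UMIs of the gene per 1000000 UMIs of the class (CPM), after TMM scaling within each experiment. Intervals on single libraries and ratios are exact 95% intervals that cover counting error only. The targeted genes followed the labels: Lama4 had 1 UMI in Lama4-/- endothelial-like cells against 1756 in both WT libraries together, and endothelial Lama5 was 22.7 and 24.8 CPM in Tek-Cre:Lama5-/- against 41.5 and 40.3 CPM in WT. Remaining Lama5 RNA need not be from the intact gene, since 3′ counts do not tell where a deletion lies.

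The genes of the coactivators were vascular, mural and astrocytic, and nearly absent from microglia. Yap1 was at 61.7 ± 5.93 CPM in smooth muscle-like, 57.9 ± 4.13 in endothelial-like and 53.6 ± 13.1 in pericyte-like cells (mean ± SD, n = 7 libraries). The ranges over libraries of these 3 classes overlapped, so their order is not resolved. Yap1 was lower in astrocyte-like cells, at 35.3 ± 3.22 CPM, and in microglia-like cells it was 0.766 ± 0.251 CPM, from 30 UMIs in 7659 cells.

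Endothelial-like cells carried Wwtr1 at 298 ± 19.9 CPM (n = 7), and their lowest library, at 272.6 CPM, lay above the highest pericyte-like library, at 149.8 CPM. Pericyte-like cells (122 ± 18.8 CPM) and smooth muscle-like cells (117 ± 22.3 CPM) overlapped. Astrocyte-like cells held 57.0 ± 11.7 CPM and microglia-like cells 3.41 ± 0.61 CPM. With every cell reduced to 2000 UMIs, 41.0 to 47.1% of endothelial-like cells had a Wwtr1 UMI, against 0.38 to 0.85% of microglia-like cells, which serve as the background of free RNA. Without that reduction the shares were 53.3 to 79.1% (median depth per library 2613 to 5958 UMIs) and 0.81 to 2.79% (2785 to 7255 UMIs).

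Among the targets, Amotl2, which encodes an angiomotin-family scaffold that binds YAP and TAZ and holds them at junctions, was highest, among the 6 classes with 50 cells in every library, in pericyte-like cells (198 ± 75.0 CPM), followed by endothelial-like (114 ± 44.4), smooth muscle-like (58.2 ± 9.45) and astrocyte-like cells (28.4 ± 13.7). Ranges overlapped between neighbours, but the order held inside each of the 7 libraries. The pericyte-like and endothelial-like libraries of the Lama5 experiment were the high ones. Oligodendrocyte-like cells carried Amotl2 at 56.6 CPM (interval 54.0 to 59.3, all libraries summed), near its smooth muscle level. Their Yap1 (0.52 CPM) and Wwtr1 (1.82 CPM) were no higher than in microglia-like cells.

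Cyr61 encodes a secreted matricellular protein that binds integrins, and it was first described as a gene induced early by growth factors. Its class means ran from 392 ± 168 CPM in endothelial-like and 293 ± 97.8 CPM in pericyte-like to 195 ± 88.0 CPM in smooth muscle-like, 182 ± 55.2 CPM in astrocyte-like and 181 ± 93.2 CPM in perivascular macrophage-like cells. Ranges of these 5 classes overlapped from each to the next, and only microglia-like cells, at 4.24 ± 1.13 CPM, stood clear. The pericyte-like mean rested on a small cluster: under a stricter cell filter, which left those cells in an unnamed cluster, it was 116 CPM. In perivascular macrophage-like cells the other members were near background, with Wwtr1 at 7.87 ± 7.89 CPM and Ctgf at 1.61 ± 2.66 CPM.

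Ctgf encodes connective tissue growth factor, a second matricellular protein of the same family. Among the same 6 classes it was highest in smooth muscle-like cells (206 ± 85.5 CPM), above pericyte-like cells in each of the 7 libraries, and pericyte-like (107 ± 67.0 CPM) and endothelial-like cells (76.4 ± 8.00 CPM) overlapped. Over the alternative settings the pericyte-like mean ranged from 44.1 to 105 CPM and the endothelial-like mean from 75.9 to 77.9 CPM, so their order is not resolved. Astrocyte-like cells held 3.82 ± 2.91 CPM, close to the 1.42 ± 0.87 CPM of microglia-like cells, so Ctgf and Cyr61 parted in astrocytes. Ankrd1, a nuclear ankyrin-repeat protein and a standard YAP readout in other cells, had 1 UMI in microglia-like and 1 in fibroblast-like cells. It had 0 in 26559 endothelial-like cells, which allows up to 0.0222 CPM, so it gives no comparison.

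Small classes, summed over libraries, lay above the means of these 6: ependymal-like cells for Cyr61, Amotl2 and Yap1, and fibroblast-like cells for Ctgf. Ependymal-like cells (293 cells) held Cyr61 at 981 CPM (949 to 1013), Amotl2 at 219 CPM (204 to 234), Yap1 at 73.2 CPM (64.8 to 82.4) and Wwtr1 at 199 CPM (185 to 213). Fibroblast-like cells (160 cells) held Ctgf at 500.2 CPM (469 to 533). Choroid plexus-like cells (177 cells) held Yap1 at 51.8 CPM (45.2 to 59.1) but Wwtr1 at 14.8 CPM (11.4 to 18.9).

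**Figure D1:**
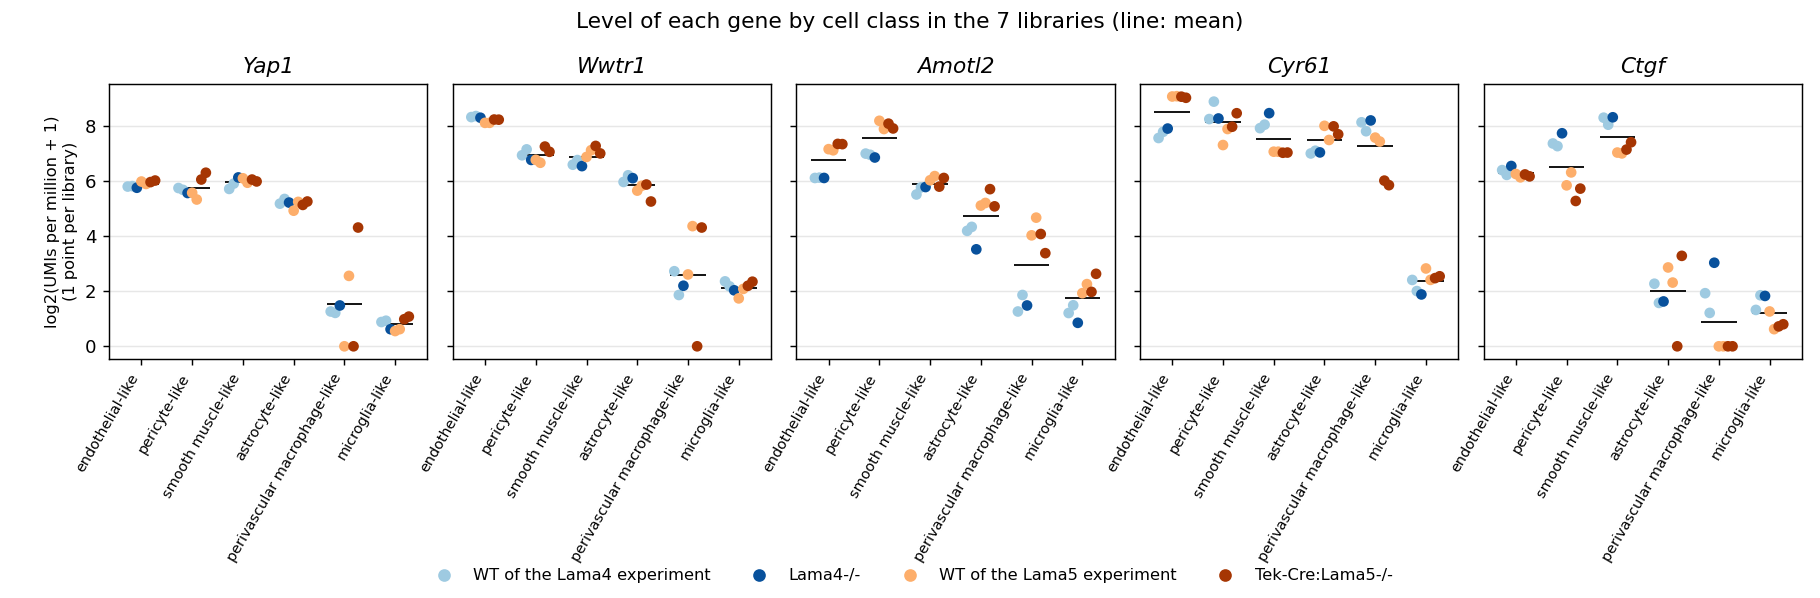
Levels of 5 genes as log2 of CPM plus 1 (vertical axis) in 6 cell classes (horizontal axis), with 1 point per library coloured by group and a line at the mean of the 7 libraries. Wwtr1 is highest in endothelial-like cells, Ctgf in smooth muscle-like cells, and the microglia-like points are low for all 5 genes.

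Genes whose levels followed the members most closely were looked for over the 42 points given by 6 classes in 7 libraries, with Pearson's r of log2(CPM + 1) over 9759 genes. The points share libraries and class depths, so r is a description. Yap1 was most like Cttn (cortactin, an actin-binding protein, r = 0.975), Zic2 (0.974) and Fermt2 (kindlin-2, an integrin activator, 0.967). Wwtr1 was most like Caskin2 (0.967) and Zic2 (0.964), and then Yap1 itself (0.958). Amotl2 was most like Notch1 (0.929), Dlc1 (0.927) and Zic2 (0.905). Ctgf was most like Smtn (smoothelin, of contractile smooth muscle, 0.967), Rras (0.958) and Col18a1 (0.946), while Cyr61 had weaker likenesses, to Aplp2 (0.901), Cpne2 (0.892) and Tmem205 (0.887). The 2 matricellular targets were less like each other (r = 0.551) than either was to Yap1 (0.706 for Cyr61 and 0.766 for Ctgf).

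The WT groups of the 2 experiments differed about 2-fold or more in several targets. In endothelial-like cells Cyr61 was 529 and 533 CPM in WT of the Lama5 experiment and 186 and 218 CPM in WT of the Lama4 experiment, a ratio of 2.63. Amotl2 was 140 and 136 CPM against 67.5 and 68.1 CPM, a ratio of 2.04. Wwtr1 (ratio 0.854), Yap1 (1.097) and Ctgf (0.922) were closer. In pericyte-like cells Amotl2 had a ratio of 2.11, but Cyr61 had 0.508 and Ctgf 0.427, and in smooth muscle-like cells the ratios were 0.528 for Cyr61 and 0.447 for Ctgf. Genes of the dissociation response also differed between the experiments, most of them in 1 direction. In endothelial-like cells Fos, Fosb, Jun, Junb, Egr1, Atf3, Ier2, Ier3, Dusp1, Nr4a1 and Btg2 were higher in WT of the Lama5 experiment. Fosb was 1457 and 1461 CPM against 249 and 229 CPM, and Btg2 was 1663 and 1699 CPM against 665 and 691 CPM. Only Hspa1a and Hspa1b were lower there, with Hspa1b at 475 and 493 CPM against 1949 and 1981 CPM. Zfp36 differed little (632 and 612 CPM against 596 and 554 CPM). Their part in the difference was not tested, and the experiments cannot be told apart from their animals and preparation, so each knockout is compared only with its own WT.

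In Tek-Cre:Lama5-/- endothelial-like cells, the RNA of TAZ and of Amotl2 rose slightly, while Yap1, Cyr61 and Ctgf were not called. Wwtr1 was 296.4 and 295.4 CPM in the knockout libraries and 272.6 and 273.0 CPM in WT. Both knockout libraries were above both WT libraries, and the estimated difference was 0.12 on the log2 scale (SE 0.0244, adjusted p = 1.9e-04 by edgeR's quasi-likelihood test with Benjamini-Hochberg adjustment over 13192 genes), or 1.08-fold. Amotl2 was 160 and 159 CPM against 140 and 136 CPM, again without overlap, with a rise of 0.21 in log2 (SE 0.0304 and adjusted p = 2.5e-07 in edgeR), or 1.16-fold. In this comparison 2638 of 13192 genes (20%) were called, 1466 (11.1%) higher and 1172 (8.88%) lower, so 2 of 5 tested members called higher stands beside a broad background of small differences.

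Yap1 was 60.8 and 63.3 CPM in the knockout against 61.7 and 58.0 CPM, with overlap (log2 fold change 0.05, interval -0.04 to 0.14, edgeR adjusted p = 0.49). Cyr61 was 527 and 513 CPM against 529 and 533 CPM with both knockout libraries just below both WT libraries (log2 fold change -0.03, interval -0.07 to 0.01, edgeR adjusted p = 0.34). Ctgf was 73.9 and 70.3 CPM against 74.7 and 68.7 CPM (log2 fold change 0.01, interval -0.08 to 0.09, edgeR adjusted p = 0.92). The intervals are 1.96 SE on either side, and that of Cyr61 is the narrowest of the 3.

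RNA of other cell types, and of markers of endothelial zones, moved with the genotype in these endothelial-like sums. Of 8 microglia markers 7 were called higher, and their summed level was 121 and 120 CPM in the knockout against 89.7 and 88.6 CPM. Of 8 astrocyte markers 7 were called lower (157 and 155 CPM against 192 and 190 CPM). Of 7 tested pericyte markers 0 were called by edgeR or DESeq2 and 0 had an unadjusted p under 0.05, with sums of 13.8 and 11.2 CPM against 13.2 and 10.6 CPM. Among the zone markers, 5 of 7 venous ones were called higher and 1 lower, with sums of 739 and 724 CPM against 573 and 594 CPM. Of 8 arterial markers 3 were called higher and 0 lower (1382 and 1600 CPM against 1244 and 1134 CPM). Of 6 capillary markers 2 were called higher and 2 lower. Erythroid markers were called lower in 4 of 4 tested (59.3 and 57.6 CPM against 310 and 297 CPM), and choroid plexus markers higher in 2 of 4 tested (145 and 141 CPM against 50.3 and 51.6 CPM). The part of these marker lists in the changes of Wwtr1 and Amotl2 was not tested.

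**Figure D2:**
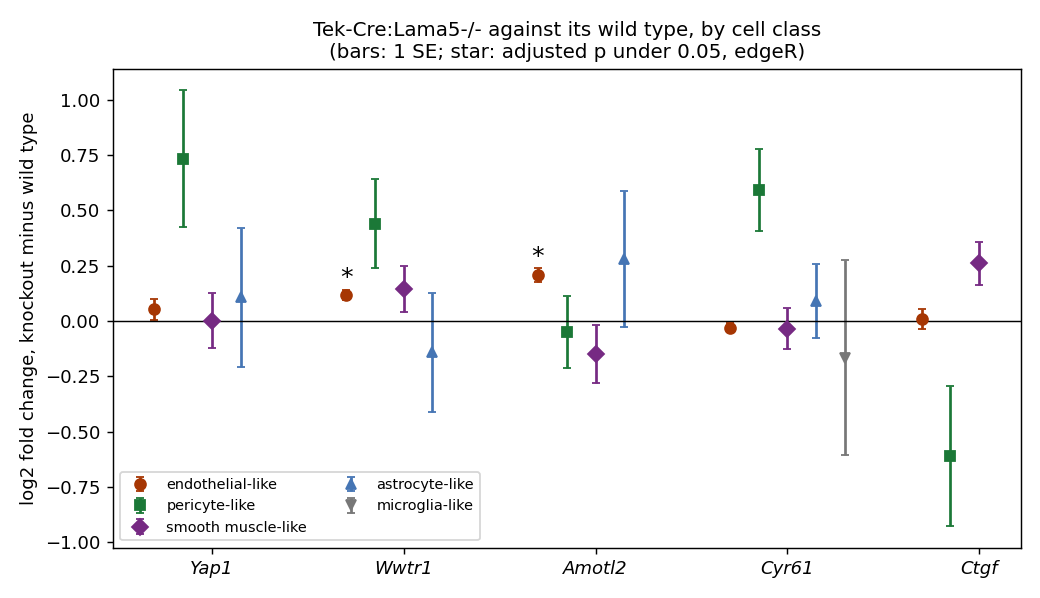
The log2 fold change in Tek-Cre:Lama5-/- against its WT (vertical axis) of 5 genes (horizontal axis) in 5 cell classes, where tested, with bars of 1 SE from edgeR and 2 libraries in each group. Stars mark Wwtr1 and Amotl2 in endothelial-like cells, the 2 values with an adjusted p under 0.05.

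The endothelial changes were next followed in 6 endothelial-like clusters with at least 100 cells in each library of the Lama5 experiment, a split chosen after the class result was seen. Clusters 0 and 1 were led by Ctla2a and Car4, a capillary marker, and cluster 2 by Ly6c1 and Flt1. Clusters 8 and 17 were led by the arterial genes Gkn3 and Mgp, and cluster 12 by Slc38a5 and Tmem252, with both Car4 and the venous gene Vwf among its 10 leading genes. Fitted 1 cluster at a time, edgeR called 12.6% of genes in cluster 0, 3.36% in cluster 1, 5.35% in cluster 2, 5.04% in cluster 8, 1.19% in cluster 17 and 8.38% in cluster 12.

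Amotl2 and Wwtr1 were each called higher in clusters 0 and 12 and in none of the other 4. In cluster 12, Amotl2 was 180 and 172 CPM in the knockout against 138 and 131 CPM (0.37 in log2, SE 0.0673, adjusted p = 2.5e-05 in edgeR), and Wwtr1 was 251 and 249 CPM against 209 and 205 CPM (0.26, SE 0.0572, adjusted p = 8.9e-04). In cluster 0, the log2 fold change was 0.26 for Amotl2 and 0.18 for Wwtr1. In cluster 2, with 3723 cells against 1183 in cluster 12, Amotl2 was 139 and 130 CPM against 145 and 139 CPM (log2 fold change -0.06, edgeR adjusted p = 0.79), and Wwtr1 had a log2 fold change of 0.01. Clusters 8 and 17 had uncalled log2 fold changes of 0.21 and 0.24 for Amotl2, with both knockout libraries above both WT libraries in each. Differences between clusters in the size of the change were not tested.

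Cyr61 and Ctgf were high in different clusters, though not in opposite order over all of them. In WT of the Lama5 experiment, Cyr61 was 679 and 721 CPM in the Gkn3 cluster 8 and 656 and 668 CPM in cluster 2, but 328 and 358 CPM in the Car4 cluster 1 and 327 and 342 CPM in cluster 12. Ctgf was 113 and 113 CPM in cluster 1 and 105 and 87.7 CPM in cluster 0, but 36.6 and 38.8 CPM in cluster 8. Cluster 12 was low for both, with Ctgf at 51.8 and 46.0 CPM. In WT of the Lama4 experiment the Car4 cluster 3 had Cyr61 at 147 and 183 CPM with Ctgf at 127 and 132 CPM, and cluster 8 had Cyr61 at 344 and 392 CPM with Ctgf at 39.4 and 25.5 CPM. There, cluster 17 was high for both (Cyr61 406 and 492 CPM, Ctgf 153 and 76.8 CPM) and cluster 19 low for both (Cyr61 89.1 and 79.97 CPM, Ctgf 34.3 and 39.7 CPM). Clusters 0, 2 and 12 come almost wholly from the Lama5 experiment and clusters 3, 7 and 19 from the Lama4 experiment, so levels are read only within an experiment.

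Both targets had 1 called change inside a cluster that the class total did not show. Ctgf in cluster 8 was 34.1 and 17.7 CPM in the knockout against 36.6 and 38.8 CPM (-0.55 in log2, SE 0.162, adjusted p = 0.025 in edgeR), and 1 knockout library lay close to WT. Cyr61 in cluster 2 was 628 and 574 CPM against 656 and 668 CPM (-0.13 in log2, SE 0.0412, adjusted p = 0.042 in edgeR). Both adjusted p-values lie near the threshold of 0.05, and 30 gene and cluster pairs were looked at.

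**Figure D3:**
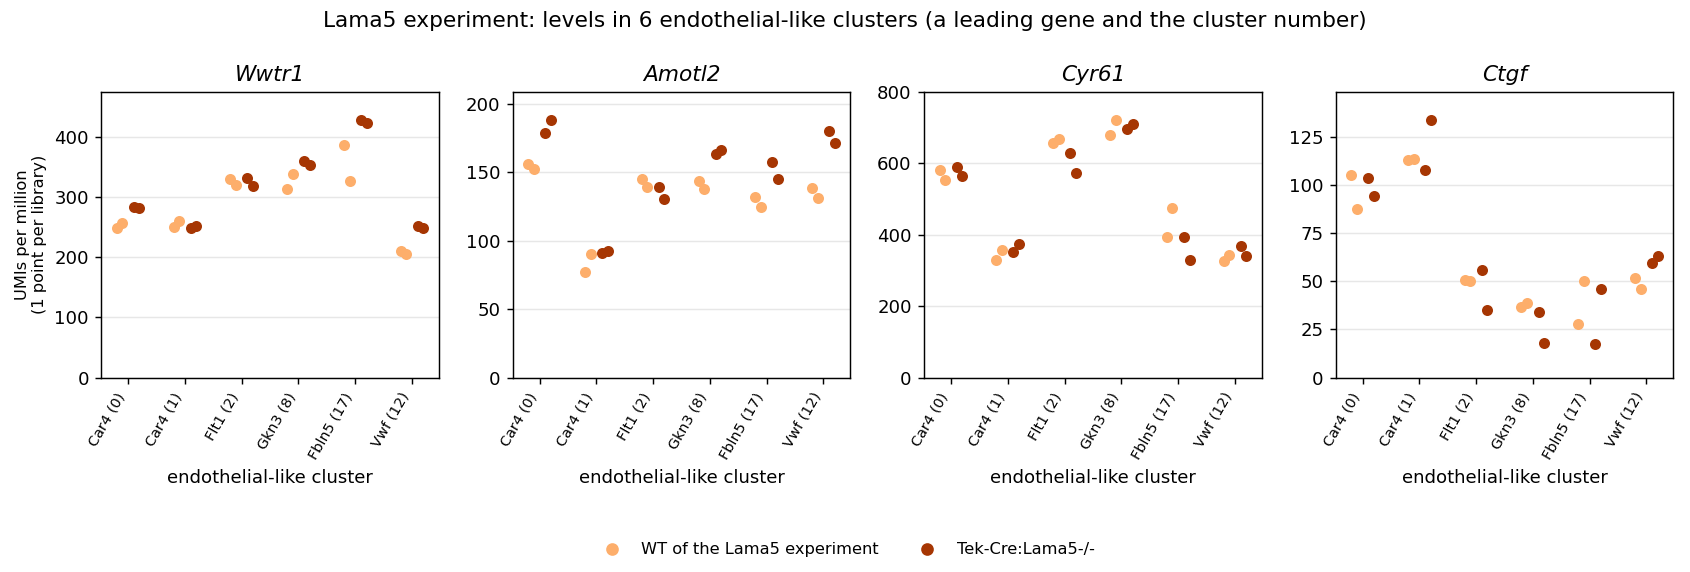
CPM of 4 genes (vertical axes, from 0) in 6 endothelial-like clusters of the Lama5 experiment (horizontal axes, named by a leading gene and the cluster number), with 1 point per library. Amotl2 and Wwtr1 lie higher in the knockout in clusters 0 and 12 but not in cluster 2, and Cyr61 and Ctgf are high in different clusters.

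Outside the endothelial-like class of the Lama5 experiment, no member was called by edgeR at an adjusted p under 0.05, against 0.560% of 6069 genes called in pericyte-like, 5.24% of 9663 in smooth muscle-like, 7.98% of 8567 in astrocyte-like and 14.4% of 9624 in microglia-like cells. Of the 15 tests on members in these 4 classes, 4 had an unadjusted p under 0.05, and DESeq2 called 0. In pericyte-like cells Yap1 was 64.9 and 77.2 CPM in the knockout against 46.2 and 38.9 CPM (0.73 in log2, SE 0.31, adjusted p = 0.42 in edgeR), and Wwtr1 was 150 and 131 CPM against 107 and 99.4 CPM (0.44, SE 0.201, adjusted p = 0.50). Cyr61 was 247 and 347 CPM against 156 and 233 CPM (0.59, SE 0.184, adjusted p = 0.17). Ctgf pointed down, at 37.5 and 51.5 CPM against 56.0 and 77.8 CPM (-0.61, SE 0.317, adjusted p = 0.58). The knockout and WT libraries did not overlap for these 4 genes in pericyte-like cells, and Amotl2 overlapped (267 and 237 CPM against 287 and 233 CPM). The share of all genes in this class without overlap was not counted, so the separation is not read as a result about the members. Erythroid markers in this class were 84.9 and 9459 CPM in the knockout against 635 and 631 CPM, and choroid plexus markers 195 and 157 CPM against 31.6 and 28.1 CPM, and their part was not tested.

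In smooth muscle-like cells Ctgf was 139 and 167 CPM in the knockout against 129 and 126 CPM (0.26 in log2, SE 0.0967, adjusted p = 0.13 in edgeR), and the libraries did not overlap. Cyr61 was 128 and 129 CPM against 132 in both WT libraries (log2 fold change -0.04, adjusted p = 0.90 in edgeR). Choroid plexus markers in these cells were 107 and 104 CPM in the knockout against 13.6 and 8.74 CPM in WT. Microglia markers were 123 and 132 CPM against 78.7 and 75.9 CPM. Erythroid markers were 391 and 41.8 CPM against 274 and 261 CPM, and the part of these lists was not tested. Astrocyte-like cells gave log2 fold changes of -0.14 to 0.28 for the 4 members tested, with overlapping libraries. In microglia-like cells only Cyr61 passed the filter on low counts, at 4.30 to 6.06 CPM, and it was not called (log2 fold change -0.17, SE 0.441, adjusted p = 0.87). The alternatives raised pericyte Cyr61 past the threshold with a replicate block (adjusted p = 0.015) and without 1 library, WT replicate 2 (0.0155) or knockout replicate 1 (0.0063), and raised smooth muscle Ctgf past it without knockout replicate 1 (0.015) and under the stricter cell filter (0.027).

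The pericyte-like values of Cyr61 and Ctgf depended on 1 small cluster. Cluster 29, with 167 cells led by Rgs5, Vtn, Ifitm1 and Col3a1, held Cyr61 at 1067 and 1390 CPM in WT and 1167 CPM in Lama4-/-. Cluster 10, with 1357 cells led by Vtn, Rgs5, Pdgfrb and Atp13a5, held it at 37.9, 7.45 and 35.5 CPM in the same libraries. Ctgf was 538, 385 and 603 CPM in cluster 29 and 33.7, 35.8 and 87.0 CPM in cluster 10. Amotl2 was less separated (160, 187 and 205 CPM against 114, 89.4 and 85.2 CPM), as was Yap1 (82.1, 69.2 and 51.2 CPM against 42.1, 40.2 and 44.4 CPM).

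Cluster 29 made up 17.4 and 16.8% of pericyte-like cells in WT of the Lama4 experiment and 12.6% in Lama4-/-, but 3.82 and 4.49% in WT of the Lama5 experiment and 2.79 and 9.57% in its knockout. With cluster 10 alone, chosen after these levels were seen, the Lama5 knockout gave log2 fold changes of 0.37 for Cyr61 (SE 0.197, adjusted p = 0.58 in edgeR), -0.47 for Ctgf (0.77), 0.75 for Yap1 (0.45) and 0.56 for Wwtr1 (0.38), with 0.257% of 5830 genes called. Within cluster 10, Cyr61 was higher in all 4 libraries of the Lama5 experiment (126 to 230 CPM) than in the 3 of the Lama4 experiment, whereas in the whole class the WT libraries of the Lama5 experiment were the lower ones.

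**Figure D4:**
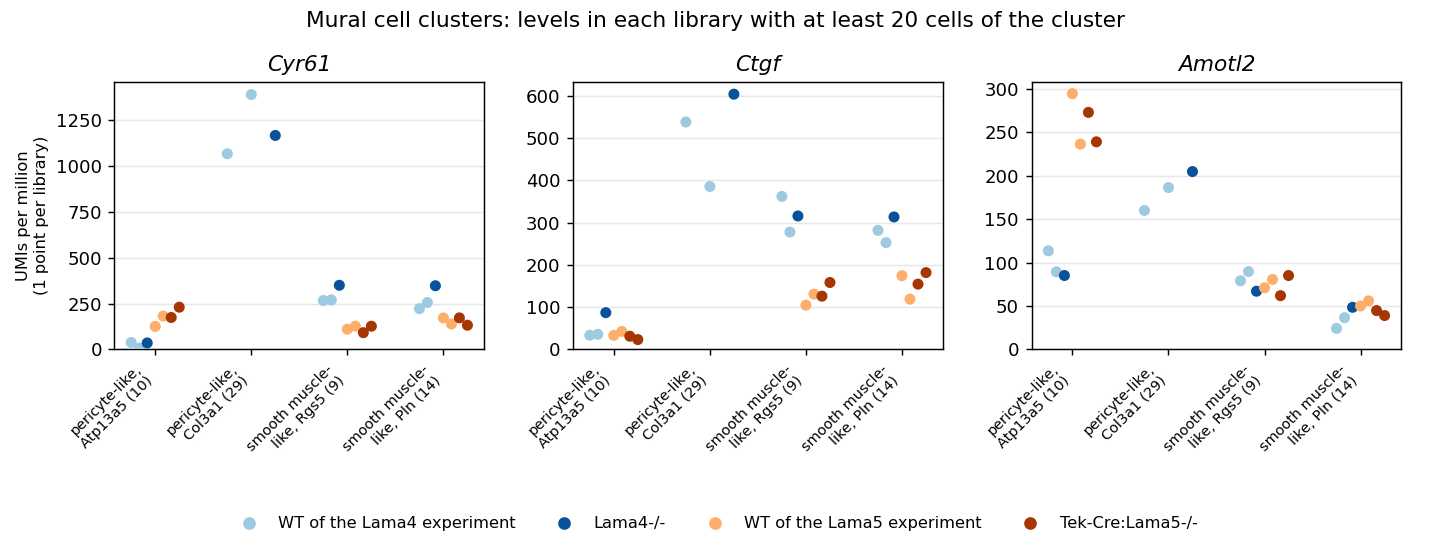
CPM of Cyr61, Ctgf and Amotl2 (vertical axes, from 0) in 2 pericyte-like and 2 smooth muscle-like clusters (horizontal axes), with 1 point per library that has at least 20 cells of the cluster. Cluster 29 stands far above cluster 10 for Cyr61 and Ctgf, and the smooth muscle-like clusters are higher in the Lama4 experiment for both genes.

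Other genes of the Hippo pathway were called at about the rate of all genes in Tek-Cre:Lama5-/- endothelial-like cells. Of a list of 29 pathway genes, 27 were tested, 4 were called higher and 2 lower, beside 11.1% higher and 8.88% lower among all genes, and the list's median log2 fold change was -0.04 against 0.00 over all tested genes. The 4 higher genes were Frmd6 (0.30, SE 0.072), Amot, the angiomotin relative of Amotl2 (0.20, SE 0.052), Mob1a, a LATS partner (0.11, SE 0.038), and Rassf1 (0.10, SE 0.032). The 2 lower genes were Sav1, the scaffold of the MST kinases (-0.15, SE 0.043), and the kinase Lats2 (-0.09, SE 0.0335). All 6 had edgeR adjusted p-values between 0.0011 and 0.036. DESeq2 called 0 of the list in either direction, so these small changes depend on the tool.

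A list of 18 further YAP and TAZ targets moved in both directions. Of 16 tested, 5 were called higher and 4 lower in endothelial-like cells, with a median of -0.03, beside the same 11.1% and 8.88% of all genes. Myof (myoferlin) rose from 36.1 and 34.9 CPM to 49.9 and 50.5 CPM (log2 fold change 0.50, SE 0.052). Nuak2 (0.33), Igfbp3 (0.15) and Tgfb2 (0.14) rose less, although the Igfbp3 libraries overlapped (100.3 and 120 CPM against 104 and 94.1 CPM). F3, which encodes tissue factor, fell from 6.45 and 6.85 CPM to 3.68 and 3.57 CPM (-0.87, SE 0.152), and Asap1 fell (-0.12). The largest estimates were in low RNAs, Arhgef17 (1.36, at 0.26 to 1.1 CPM) and Fjx1 (-1.37, at 0.65 to 2.6 CPM), and Lats2 belongs to both lists. Of 14 genes of the dissociation response, 4 were called higher and 7 lower, with the largest changes in Hspa1b (-0.58), Btg2 (-0.38), Hspa1a (-0.27) and Ier3 (0.23), and their part in the target list's changes was not tested.

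In smooth muscle-like cells 3 of 24 tested pathway genes and 1 of 16 targets were called, beside 5.24% of all genes. Rassf1 was higher (log2 fold change 0.30) and Ajuba (-0.48), Limd1 (-0.24) and Fjx1 (-0.73) were lower. In astrocyte-like cells edgeR called 2 of 10 targets, Tgfb2 (-0.97) and Fjx1 (-0.40), both lower, beside 7.98% of all genes. It called 0 of 23 pathway genes there, as did DESeq2, and 2 of them had an unadjusted p under 0.05. Summed microglia markers in this class were 996 and 913 CPM in the knockout against 383 and 407 CPM in WT. Oligodendrocyte markers were 872 and 852 CPM against 439 and 569 CPM. Astrocyte markers were 15475 and 17492 CPM against 20552 and 20592 CPM, and the part of these lists was not tested. In microglia-like cells 2 of 19 pathway genes and 1 of 7 targets were called, beside 14.4% of all genes. Mob1b (0.33) and Rassf1 (0.39) were higher and Nuak2 (-0.30) was lower there, and in pericyte-like cells edgeR called 0 of 22 pathway genes and 0 of 13 targets and DESeq2 called 0 of either, while 3 and 2 of them had an unadjusted p under 0.05. DESeq2 called 1 pathway gene and 0 targets over the smooth muscle, astrocyte and microglia classes together.

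The Lama4-/- group has 1 distinct library, so its differences from the 2 WT libraries have no replicate check and no test. In endothelial-like cells the matricellular targets were higher and the coactivators were not. Cyr61 was 236 CPM in Lama4-/- against 186 and 218 CPM in WT, a ratio of 1.17 (1.13 to 1.22). Ctgf was 91.6 CPM against 82.5 and 73.0 CPM, also a ratio of 1.17 (1.10 to 1.25). For both genes the 2 WT libraries differed from each other by more than the knockout differed from the nearer of them. Yap1 (0.965, 0.892 to 1.04), Wwtr1 (0.972, 0.941 to 1.00) and Amotl2 (0.996, 0.929 to 1.07) had ratios near 1. Summed choroid plexus markers moved with this comparison (1147 CPM in Lama4-/- against 235 and 163 CPM in WT), and their part in it was not tested.

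Past 1.5-fold against both WT libraries lay 4.46% of 12995 endothelial genes, or 0.360% of genes at 20 CPM or more, and 0 of the 5 detected members. Of 28 measured pathway genes only Wwc1 lay past it, upward, and of 17 measured targets Arhgef17, Ccdc80 and Fjx1 did, 2 upward and 1 downward. Some of these are low RNAs: Wwc1 was 0.70 CPM against 0.40 and 0.38 CPM, Arhgef17 0.64 against 1.24 and 1.04 CPM, and Fjx1 3.21 against 1.59 and 1.53 CPM. Ccdc80 did not pass the filter on low counts in endothelial-like cells of the Lama5 experiment. Among more abundant targets that did not pass, Tgfb2 was higher (196 CPM against 128 and 132 CPM) and Igfbp3 lower (62.5 CPM against 77.1 and 90.8 CPM). The medians of the log2 ratio were -0.04 for the pathway list and 0.03 for the targets, against 0.00 over all genes.

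The higher endothelial Ctgf of the Lama4-/- library was largest in ratio in the cluster with venous markers. In cluster 19, led by Lcn2, Vwf and Slc38a5, Ctgf was 97.1 CPM in Lama4-/- against 34.3 and 39.7 CPM in WT, a ratio of 2.64 (2.26 to 3.08). The share of its cells with a Ctgf UMI was 30.0% in Lama4-/- and 29.7 and 36.2% in WT, so the shares of positive cells overlapped while the level did not. In the knockout, 1 cell held 64 of the 370 UMIs, so the counting interval is too narrow for this gene. Ctgf was within the WT range in the Car4 cluster 3 (127 CPM against 127 and 132 CPM) and lower in the Gkn3 cluster 8 (12.9 CPM against 39.4 and 25.5 CPM, ratio 0.404, 0.23 to 0.67). The cluster 8 value came from 18 against 105 UMIs. There 1 WT cell held 17 of the 105, so this interval is too narrow as well.

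Cyr61 had another pattern. It was higher in cluster 3 (208 CPM against 147 and 183 CPM, ratio 1.28, 1.19 to 1.37) and in the Ly6c1 and Spock2 cluster 7 (311 CPM against 226 and 248 CPM, ratio 1.31, 1.24 to 1.40). The share of cells with a Cyr61 UMI, at unequal depth, was not higher. It was 27.8% against 31.0 and 32.8% in cluster 3, and 43.2% against 43.2 and 46.5% in cluster 7. In cluster 3 of the knockout 1 cell held 67 of the 1123 UMIs, so the counting interval is too narrow here as well. In cluster 19 Cyr61 was 89.0 CPM against 89.1 and 79.97 CPM, and in cluster 8 it was 357 CPM against 344 and 392 CPM. Amotl2 and Yap1 had ratios between 0.82 and 1.07 in clusters 3, 7, 8 and 19. Wwtr1 was lower in cluster 8 (297 CPM against 352 and 355 CPM, ratio 0.840, 0.749 to 0.940). It was also lower in cluster 17 (232 CPM against 270 and 282 CPM, ratio 0.839, 0.706 to 0.993). In clusters 3, 7 and 19 the ratios of Wwtr1 were 1.00, 0.951 and 1.03.

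In smooth muscle-like cells of the Lama4-/- library Cyr61 was 348 CPM against 238 and 260 CPM, a ratio of 1.39 (1.27 to 1.52), and it was higher in both smooth muscle-like clusters (ratio 1.30 in cluster 9 and 1.44 in cluster 14). Yap1 was 68.5 CPM against 51.1 and 58.6 CPM (1.25, 1.01 to 1.52). Ctgf was 314 CPM against 311 and 260 CPM (1.10, 1.01 to 1.21). Past 1.5-fold lay 7.13% of genes in this class, and no member. Choroid plexus markers were 899 CPM in Lama4-/- against 143 and 94.8 CPM in these cells, and erythroid markers 25.3 CPM against 431 and 89.6 CPM, and their part was not tested.

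In pericyte-like cells Ctgf was 210 CPM against 162 and 151 CPM (1.34, 1.10 to 1.63) and in cluster 10 alone its ratio was 2.51 (1.65 to 3.81), from 49 against 48 UMIs. There 1 knockout cell held 10 of the 49, so this interval is too narrow as well. The share of cluster 10 cells with a Ctgf UMI was 11.1% in Lama4-/- against 8.13 and 8.82% in WT. Cyr61 was 304 CPM, between WT libraries at 299.9 and 465 CPM, and under the stricter cell filter its log2 ratio turned from -0.34 to 0.76. Past 1.5-fold lay 8.98% of pericyte-like genes, and no member. Choroid plexus markers were 2358 CPM against 348 and 268 CPM here, and their part was not tested. In astrocyte-like cells Amotl2 was 10.4 CPM against 17.2 and 19.1 CPM, from 20 against 56 UMIs (0.576, 0.327 to 0.975). It was 1 of 2 member values past 1.5-fold that the filter kept, in classes where 5.24% of astrocyte-like and 5.92% of microglia-like genes were, and the other was microglial Amotl2, from 6 against 32 UMIs.

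**Figure D5:**
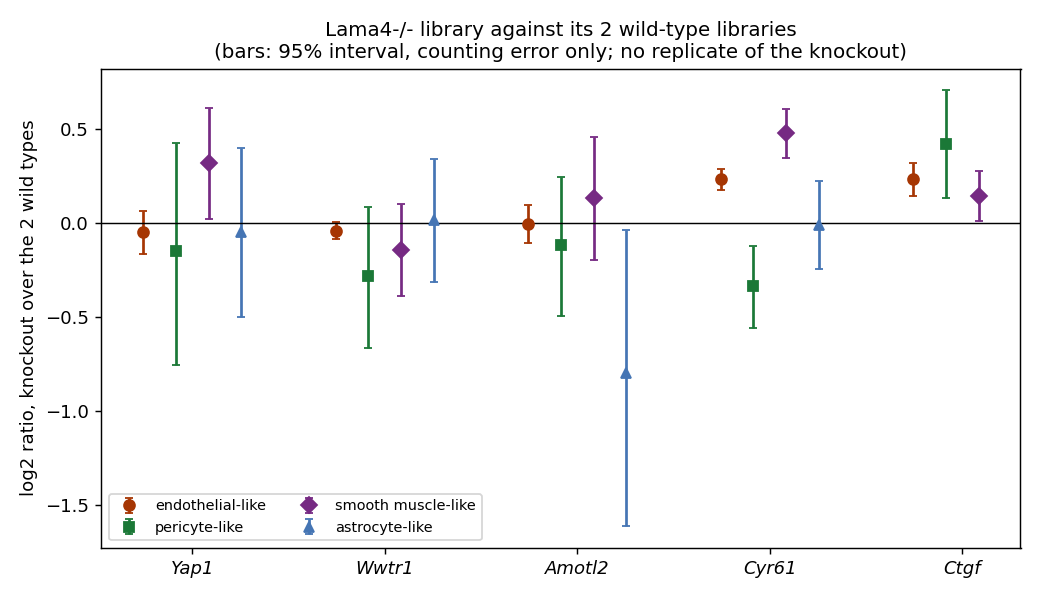
The log2 ratio of the Lama4-/- library to its 2 WT libraries (vertical axis) for 5 genes (horizontal axis) in 4 cell classes, with exact 95% intervals for counting error only, where the knockout had at least 10 UMIs. Cyr61 lies above 0 in endothelial-like and smooth muscle-like cells and below 0 in pericyte-like cells, where the knockout lies between its WT libraries.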

How the data were processed

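Cortical cells were sequenced with a droplet 3′ kit, per the labels' protocols. The deposited matrices hold raw UMI counts per gene and barcode. Per the file headers they were written by Cell Ranger software 3.1.0, and the submitters' processing notes name Cell Ranger, Seurat 3.1 and mm10. The 6 genes and the lists were chosen with earlier results of these data known.

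Barcodes with fewer than 500 genes or at least 15% mitochondrial UMIs were removed, as were predicted doublets (3015, at a rate of 0.8% per 1000 cells). Cells were clustered without integration (2000 variable genes, 30 principal components, 15 neighbours, Leiden resolution 1, igraph 0.11.9). A cluster of at least 20 cells was named "-like" from at least 3 markers among those listed. UMIs were summed per library and class. The Lama5 comparison used edgeR 4.0.16 (TMM, filterByExpr, quasi-likelihood test, Benjamini-Hochberg over all tested genes, threshold 0.05) on 2 against 2 libraries, and intervals of fold changes are 1.96 SE wide on each side. DESeq2 1.42.0 was an alternative, besides RLE factors, no filter, each library left out, a replicate block, other cell filters and resolution 2. The fits were tested on simulated data. The Lama4 comparison gives ratios of summed counts with exact 95% intervals. Named genes were the 6 members, Lama4, Lama5, up to 8 called genes of each pathway list and 4 of the dissociation list by size of the endothelial change, and the 3 genes most like each member. Every other gene named was chosen after its values were seen. Fits of single clusters were added after seeing the data. A count of 0 allows 3 counts. Antisense and overlapping genes were not separated. Same-numbered libraries did not deviate together (correlations -0.018 to 0.039).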

Additional observations from a re-analysis of the deposited data

Results flagged for a closer look

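3 results were picked out because both Tek-Cre:Lama5-/- libraries lay above both WT libraries in one cell class and below both in another. The share of all genes that meet this rule was not counted, so the 3 are a description only. In each case the difference between the classes was not tested. Cyr61 had a log2 fold change of 0.59 in pericyte-like and -0.03 in endothelial-like cells, a difference of 0.62. Against smooth muscle-like cells, at -0.04, the difference for Cyr61 was 0.63. The separations of Cyr61 in these 2 classes were small. Endothelial-like cells had 527 and 513 CPM against 529 and 533 CPM, and smooth muscle-like cells 128 and 129 CPM against 132 in both WT libraries. The pericyte-like value depended on cluster 29. That cluster made up 2.79 and 9.57% of the class in the knockout against 3.82 and 4.49% in WT. Ctgf had a log2 fold change of 0.26 in smooth muscle-like and -0.61 in pericyte-like cells, a difference of 0.87. None of the 5 single-class values behind these differences was called by edgeR at an adjusted p under 0.05.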

How the results depend on the processing

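Wwtr1 and Amotl2 in Tek-Cre:Lama5-/- endothelial-like cells stayed higher and called under every alternative listed at the outset. Without 1 library at a time, Wwtr1 ranged over 0.11 to 0.12 and Amotl2 over 0.19 to 0.23 (log2), and the largest adjusted p for Wwtr1 was 0.024, with DESeq2. The replicate block (0.12 and 0.21 in these 2 genes) changed 1 member's call, pericyte Cyr61 (0.60), and moved the pericyte count from 34 to 79 genes. No paired analysis was possible for Lama4-/- because it has 1 library.

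DESeq2 called 989 endothelial, 5 pericyte, 182 smooth muscle, 198 astrocyte and 456 microglia genes. With no filter on low counts, 1750 endothelial and 222 smooth muscle genes were called, and with doublets kept 70 astrocyte genes. Without 1 library at a time the counts were 1988 to 2116, 30 to 39, 322 to 466, 282 to 1007 and 848 to 1048 in the same order of classes. For the pathway list, DESeq2 called 0 higher and 0 lower, no filter gave 2 and 1, the stricter cell filter gave 1 lower, and leaving out a library gave 2 to 3 higher and 0 to 2 lower. For the targets, DESeq2 called 1 higher and 2 lower, no filter gave 2 higher, and leaving out a library gave 3 to 4 higher and 3 lower.

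Fits of single clusters were chosen after seeing the data. They called 1449, 324, 541, 517, 866 and 90 genes in endothelial clusters 0, 1, 2, 8, 12 and 17, and 15 in the largest pericyte-like cluster. Against the class, direction turned for Yap1 in clusters 0, 1 and 8 (-0.08, -0.27, -0.011), for Wwtr1 in cluster 1 (-0.025), for Amotl2 in cluster 2 (-0.061), for Cyr61 in clusters 0, 1 and 12 (0.039, 0.090, 0.071) and for Ctgf in clusters 2, 8 and 17 (-0.13, -0.55, -0.24). The calls of Wwtr1 were lost in clusters 2, 8 and 17 (0.014, 0.12, 0.25) and those of Amotl2 in clusters 1, 8 and 17 (0.14, 0.21, 0.24), and the cause was not tested. Cyr61 in cluster 2 became called (-0.13).

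Other uncalled members near 0 changed direction, and the cause was not tested. Endothelial Ctgf was -0.0042 with no filter, -0.0032 under the stricter cell filter and -0.052 to 0.071 without 1 library. Smooth muscle Yap1 was -0.0011 with DESeq2's size factors, -0.0023 with DESeq2, -0.0083 with no filter, -0.0017 with the replicate block, -0.0057 at resolution 2, -0.0059 under the stricter filter and -0.082 to 0.089 without 1 library. Smooth muscle Cyr61 was 0.024 under the stricter filter, where astrocyte Yap1 was -0.020, Amotl2 -0.014 and Cyr61 -0.30. Astrocyte Amotl2 was -0.0059 with doublets kept. Without 1 library the ranges were -0.19 to 0.11 for pericyte Amotl2, -0.0039 to 0.28 and -0.31 to 0.0022 for smooth muscle Wwtr1 and Amotl2, -0.058 to 0.28, -0.50 to 0.14, -0.080 to 0.56 and -0.16 to 0.35 for astrocyte Yap1, Wwtr1, Amotl2 and Cyr61, and -0.37 to 0.13 for microglia Cyr61.

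In Lama4-/-, the log2 ratio of endothelial Wwtr1 was 0.0073 on unscaled totals, and without 1 WT library endothelial Cyr61 was 0.12 to 0.34 and Ctgf 0.15 to 0.33. Pericyte Cyr61 was 0.76 under the stricter filter and -0.61 to 0.021 without 1 WT library. The log2 ratio of pericyte Ctgf ranged from 0.22 to 1.47 over the alternatives other than leaving out a library. Mean levels that moved were astrocyte Yap1 (27.03 CPM) and pericyte Cyr61 (116 CPM) under the stricter filter and, with doublets kept, microglia Wwtr1 (25.8), Amotl2 (10.9), Cyr61 (38.5) and Ctgf (7.58) and astrocyte Ctgf (11.4). The mean of pericyte Ctgf also moved, and ranged from 44.1 to 105 CPM over the alternative settings. Depth limits the pericyte-like class (157 to 298 cells per library) and other small classes.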

Other observations

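In perivascular macrophage-like cells, a class for which no test was planned (50 to 131 cells per library), Cyr61 was 63.1 and 56.2 CPM in Tek-Cre:Lama5-/- against 188 and 170 CPM in its WT. The ratio was 0.333 (exact 95% interval 0.2 to 0.534, counting error only), from 24 against 72 UMIs. The libraries did not overlap, and the Lama4 experiment gave 277 and 221 CPM in WT and 290 CPM in Lama4-/-. The value was chosen after it was seen and was not tested.

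Single cells held many UMIs of Cyr61 or Ctgf in some clusters, although Cyr61 was widely detected. In the Lama5 experiment 56.8 to 62.7% of endothelial-like cells per library had a Cyr61 UMI. In the Pln-expressing smooth muscle-like cluster 14, 1 WT cell of the Lama4 experiment held 103 Ctgf UMIs while 39.2% of that library's cells in the cluster had any. In the Car4 cluster 3 of Lama4-/-, 1 cell held 67 of the 1123 Cyr61 UMIs and 27.8% of cells had any. The largest number of Yap1 UMIs in 1 cell of that cluster and library was 5. Yap1 was also lower there (46.0 CPM against 208 CPM for Cyr61), and 19.4% of cells had a Yap1 UMI.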
